A study of Brassica carinata x Brassica rapa with 9 samples.

Results

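The 3 copies of TDF1 (Tapetal Development and Function 1) in a synthetic Brassica allohexaploid are described here, copy by copy, in all 9 libraries. They were taken by identifier from the 100804 genes of the FPKM table. Bra025337 is the A-genome copy, BniB025201 the B-genome copy and Bol042967 the C-genome copy. The plant has the genotype AABBCC, with its A-genome from B. rapa and both other genomes from B. carinata, and all libraries come from this material without any treatment. RNA-Seq was done on Anther (meiosis to pollen maturation), Ovule (from meiosis until the embryo sac is mature) and young Leaf as vegetative control, with 3 libraries for each of the 3 tissues, which the study describes as biological replicates. By the sample labels B. rapa was the female parent, whereas the study's methods make it the male parent. Each Anther or Ovule library is a mixture of developmental stages and of all cell types of the organ, so that fewer cells of a type and less RNA per cell cannot be told apart. The study picked the 3 copies on these same libraries, among the genes it called higher in Anther than in both other tissues. Their higher level in Anther is therefore given as a description.

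The tapetum is the innermost layer of the anther wall, which feeds the developing microspores and makes most of the material of the outer pollen wall. In Arabidopsis, TDF1 is a transcription factor of the R2R3 MYB family that acts early in this layer. It stands upstream of AMS, a bHLH factor, which is followed by MYB80 (MS188) and by the enzymes and carriers that make and export the precursors of sporopollenin, the polymer of the exine. Plants that lack TDF1 have an overgrown, undifferentiated tapetum and set no functional pollen. Meiosis takes place while the early regulators are active, whereas sporopollenin is made mainly after the tetrads have formed.

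The study designed a primer pair for RT-qPCR of the A-genome copy Bra025337, and these are the sequences of a TDF1 copy shown here, since they define the stretch by which that copy was followed. Each primer is 20 bases long and is printed 5′ to 3′ with the 5 bases at the 3′ end, from which the polymerase extends, in capitals. Whether the pair also fits the B- and C-genome copies was not tested.
Bra025337 forward primer: agtatcacgcagccaAACCA
Bra025337 reverse primer: aaccggatccgagagAAGGT

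FPKM (fragments per kilobase of gene, scaled to library size) divides the reads on a gene by its length and by the library total. The deposited values were whole reads times a fixed step for each gene and library, so that the reads behind each value and the length used could be read back. These lengths were 972 bases for Bra025337, 960 for BniB025201 and 963 for Bol042967, all divisible by 3, so they are called coding lengths here. Reads on genes numbered 8675687 to 10154191 per Leaf library, 15113765 to 15516175 per Ovule library and 15076174 to 15526377 per Anther library. The study reports a lower mapping rate for the Leaf libraries than for those of Ovule and Anther. The part of this in the comparisons with Leaf was not tested. Pairs of replicates were compared by chi-square over their genes with 1000 reads or more, where counting alone gives a mean near 1. This mean was 1.65 to 1.99 within Leaf, 34.7 to 38.8 within Ovule and 59.3 to 228 within Anther. The spread in Leaf thus was little wider than that of counting, and the widest differences were those of Anther replicate 2 from the other Anther libraries.

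All 3 TDF1 copies were well above their other levels in Anther. Bra025337 stood at 32.3, 55.9 and 26.7 FPKM in Anther replicates 1, 2 and 3, which rest on 478, 821 and 403 reads. BniB025201 stood at 13.3, 32.0 and 17.6 FPKM, on 195, 464 and 263 reads. Bol042967 stood at 14.2, 28.5 and 13.4 FPKM, on 209, 415 and 201 reads. Each copy was highest in replicate 2, and the A-genome copy was the highest of the 3 in each Anther library. Taken as means, the copies reached 38.3 ± 15.5 FPKM for Bra025337, 21.0 ± 9.78 for BniB025201 and 18.7 ± 8.50 for Bol042967 (SD, n = 3), and the ranges of the copies overlapped across libraries. Within single libraries the A-genome copy exceeded the B-genome copy by 1.51 to 2.42 times and the C-genome copy by 1.96 to 2.27 times. The B- and C-genome copies had no fixed order, with B-to-C ratios of 0.936, 1.12 and 1.31. Among all genes of a library, Bra025337 was higher than 92.6% to 96.8% of them in Anther, BniB025201 than 83.3% to 93.5% and Bol042967 than 84.0% to 92.6%.

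**Figure D1:**
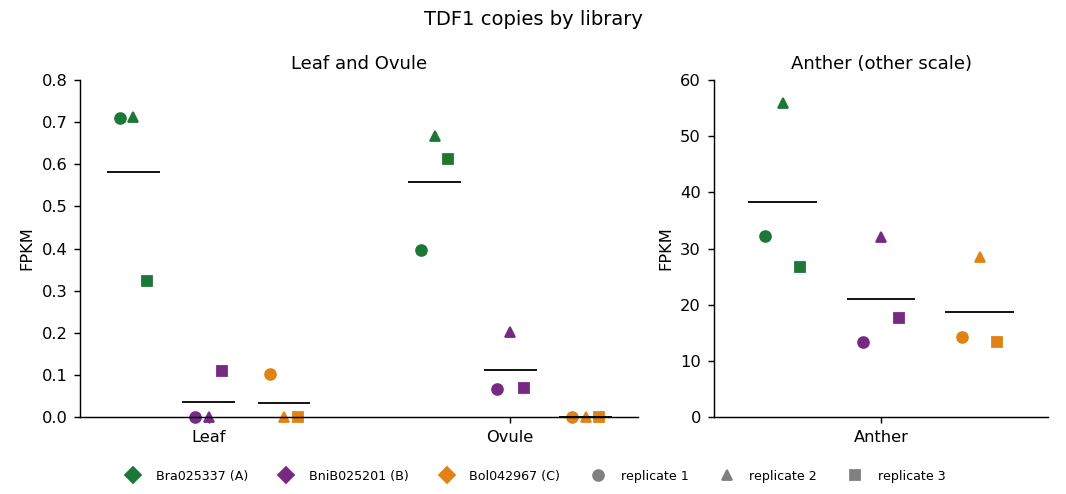
FPKM of the 3 TDF1 copies (A-, B- and C-genome, by colour) in each library, with Leaf and Ovule on a scale to 0.8 and Anther on a scale to 60; the symbol gives the replicate and the line the mean of 3 libraries. Anther replicate 2 is the highest Anther library for each copy, and only the A-genome copy has reads in each Leaf and Ovule library.

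Outside the anther, TDF1 was close to the limit of detection, and what there was came mostly from the A-genome copy, with 16 of 18 reads in Leaf and 25 of 30 in Ovule. Bra025337 was at 0.709, 0.711 and 0.322 FPKM in the Leaf libraries, on 7, 6 and 3 reads. It was at 0.397, 0.667 and 0.612 FPKM in the Ovule libraries, on 6, 10 and 9 reads. The Leaf and Ovule libraries overlapped in this copy. BniB025201 had 1 read in the 3 Leaf libraries together and 5 in the Ovule libraries. Bol042967 had 1 read in Leaf and none in Ovule, where 3 reads, taken as the floor, would be 0.201 to 0.206 FPKM per library. All 3 copies together had 3449 reads in Anther.

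Bra025337 was 68.5-fold higher in Anther than in Ovule and 65.9-fold higher than in Leaf by the means of FPKM. BniB025201 was 186-fold higher in Anther than in Ovule. Its pooled reads gave a ratio of 571 to Leaf, with a counting interval (95%, exact) of 102 to 22578, since a single Leaf read stands behind it. Bol042967, without a read in Ovule, was at least 92.3-fold higher in Anther with 3 reads per Ovule library as the floor, and its ratio to Leaf was 511 (counting interval 91.4 to 20205). For Anther against Ovule, the counting interval of the pooled reads was 46.1 to 106 for Bra025337 and 79.0 to 571 for BniB025201, and it began at 224 for Bol042967. Those of the A- and C-genome copies thus did not overlap. These intervals cover counting error only, and the difference between copies was not tested over libraries.

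In the limma fit on log2(FPKM + 0.1), the differences between Anther and Ovule were 5.82 for Bra025337, 6.59 for BniB025201 and 7.47 for Bol042967 on the log2 scale (standard errors 0.36, 0.45 and 0.40). Those between Anther and Leaf were 5.81, 7.27 and 7.13, with the same standard errors. The added 0.1 shrinks them for genes near 0, and for Bol042967 against Ovule the value is no bound. All 3 copies met the thresholds (a fold change of at least 2 and an adjusted p of at most 0.05) in both comparisons, where 14.3% of the 75038 genes tested were called higher in Anther than in Ovule and 38.4% higher in Anther than in Leaf. Likewise each Anther library was above each Ovule and each Leaf library for the 3 copies, as was true of 23.6% and 52.7% of all genes tested. The study selected the copies for this direction, so nothing is read from these counts. BniB025201 and Bol042967 passed the filter on low values through Anther alone.

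Ovule and Leaf, the comparison that did not serve to select the copies, gave no call for the 3 copies. Of all genes tested, 51.6% were called there in either direction, but nothing is read from this for BniB025201 and Bol042967, which had at most 5 reads per tissue. The log2 difference between Ovule and Leaf was -0.01 for Bra025337 (standard error 0.36, adjusted p = 1.0 by limma). It was 0.68 for BniB025201 (standard error 0.45) and -0.34 for Bol042967 (standard error 0.40), with too few reads in both tissues for a test. These standard errors come from the fit over all 3 tissues and do not measure the spread in Ovule and Leaf alone. In reads, the ratio of Ovule to Leaf for Bra025337 was 0.964 with a counting interval of 0.495 to 1.93. Without rescaling, counting error alone thus leaves a difference of up to about 2-fold either way undecided. All genes tested had a median log2 difference of 0.66 in this comparison, and after rescaling by median-of-ratios factors the value for Bra025337 was -0.57 (adjusted p = 0.21 by limma).

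As a share of summed TDF1 FPKM in Anther, the A-genome copy held 49.4% ± 4.04, the B-genome copy 26.8% ± 4.18 and the C-genome copy 23.9% ± 0.621 (SD, n = 3). The share of the C-genome copy was nearly the same in the 3 Anther libraries, while those of the A- and B-genome copies moved against each other. Of the 882, 1700 and 867 reads on the copies in Anther replicates 1, 2 and 3, Bra025337 had 54.2%, 48.3% and 46.5%. The 95% Clopper-Pearson intervals, which cover counting error only, were 50.8% to 57.5%, 45.9% to 50.7% and 43.1% to 49.9%, so that the interval of replicate 1 lay just above both others. BniB025201 had 22.1%, 27.3% and 30.3% of the reads. Over all genes, the B-genome share of summed FPKM was 31.4% to 31.9% in these libraries. The copies differ in length by few bases, but reads that fit more than 1 copy may have been dropped or given to a single copy, and the part of this in the shares was not tested.

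**Figure D2:**
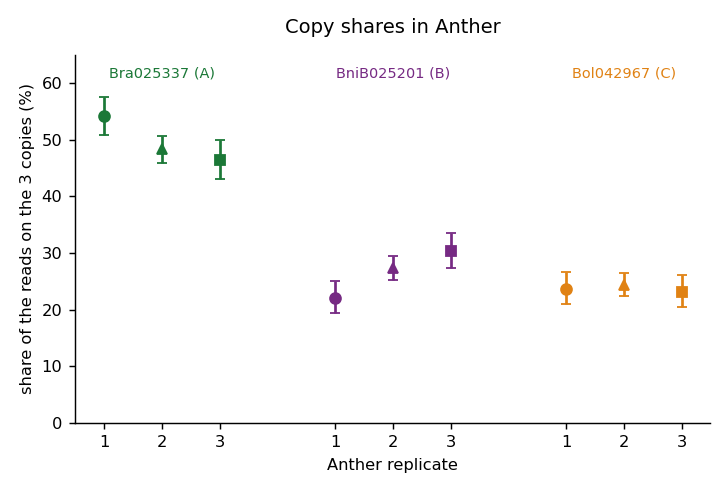
Share of the reads on the 3 TDF1 copies that fell on each copy, by Anther replicate, with exact 95% Clopper-Pearson intervals that cover counting error only. The A-genome copy holds 46.5% to 54.2%, the B-genome copy 22.1% to 30.3% and the C-genome copy 23.2% to 24.4%.

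The regulators that act after TDF1 had another order of subgenomes. The study lists 6 copies each of AMS and MYB80, a pair for each subgenome. Copies that the study did not list are not in these shares, nor in those of TDF1. The A-genome held 22.6% ± 2.02 of summed AMS FPKM and 27.1% ± 2.83 of summed MYB80 FPKM in Anther, and the C-genome held 47.8% ± 1.28 and 49.4% ± 1.20, respectively (SD, n = 3). For TDF1 the A-genome was thus highest and for AMS and MYB80 the C-genome, in each of the 3 Anther libraries. All genes together gave 38.8% ± 0.160 to the A-genome and 29.7% ± 0.402 to the C-genome. No test was made between genes.

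All 3 TDF1 copies were highest in Anther replicate 2, as were 41.3% of all genes tested and 40.1% of the 8409 genes called higher in Anther than in both other tissues. The copies stayed highest there after rescaling by median-of-ratios factors, as did 36.4% of all genes tested. They were at least 1.5 times above each other Anther library there, as were 6.89% of all genes tested and 11% of those 8409 genes. The ratio of replicate 2 to the mean of replicates 1 and 3 was 1.90 for Bra025337, 2.07 for BniB025201 and 2.06 for Bol042967, against a median of 1.03 over all genes tested, with 0.217 and 1.83 as 5th and 95th percentiles. The libraries below it were in different order: replicate 3 was lowest for Bra025337 and Bol042967, and replicate 1 for BniB025201. For Bol042967 these lower libraries had 209 and 201 reads.

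AMS and MYB80 were mixed in this order. Summed over 6 copies, AMS stood at 1439, 1409 and 1115 FPKM in Anther replicates 1, 2 and 3, and 3 copies were highest in replicate 1 and 3 in replicate 2. MYB80 stood at 352, 349 and 420 FPKM, with 4 copies highest in replicate 3 and 2 in replicate 2. No copy of either reached 1.5 times both other libraries in replicate 2. Summed TDF1 stood at 59.8, 116 and 57.7 FPKM, so that AMS came to 24.1, 12.1 and 19.3 FPKM per FPKM of TDF1, and MYB80 to 5.88, 3.00 and 7.28. Both ratios were lowest in replicate 2.

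Most genes of sporopollenin synthesis and the pollen wall were lowest where TDF1 was highest. Of 27 genes of sporopollenin enzymes, 23 were lowest in Anther replicate 2, and so were all 9 genes of MS2 and ABCG26, beside 31.1% of all genes tested. Exceptions that were highest in replicate 2 were the LAP5 copies Bra034658 and Bol034656 and the TKPR2 copy BniB031910, at 1.39, 1.06 and 1.29 times the mean of the other libraries. These 3 copies are named after their values were seen. MS2, a fatty acyl reductase, summed over 6 copies to 2962, 471 and 3267 FPKM in replicates 1, 2 and 3. ABCG26, the carrier that exports sporopollenin precursors, summed to 1334, 463 and 1103 FPKM. CYP703A2 and CYP704B1, the P450 enzymes that hydroxylate fatty acids, came to 0.184 and 0.295 times the mean of the other libraries in replicate 2. The polyketide synthases LAP6 and LAP5 came to 0.369 and 0.818, the acyl-CoA synthetase ACOS5 to 0.822 and the reductases TKPR1 and TKPR2 to 0.733 and 0.797. MS2 thus went from 49.5 and 56.6 FPKM per FPKM of TDF1 in replicates 1 and 3 to 4.05 in replicate 2.

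Most meiotic genes were also highest in Anther replicate 2. Of the 37 meiotic genes that the study lists, 35 were highest in Anther replicate 2 and 27 were at least 1.5 times above both other libraries there. Their summed FPKM was 136, 370 and 157 in replicates 1, 2 and 3, a ratio of 2.52 to the mean of the others, compared with 1.98 for summed TDF1. The order of the lower libraries was mixed in both sets. Replicate 1 was lowest for 22 of the meiotic genes and replicate 3 for 14. For TDF1, replicate 3 was lowest for 2 of the 3 copies and replicate 1 for BniB025201. Anther samples span meiosis to pollen maturation, and the part of the mixture of stages in the level of TDF1 was not tested. Without replicate 2 the log2 differences of the 3 copies between Anther and Ovule were 5.51 for Bra025337, 6.24 for BniB025201 and 7.12 for Bol042967.

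**Figure D3:**
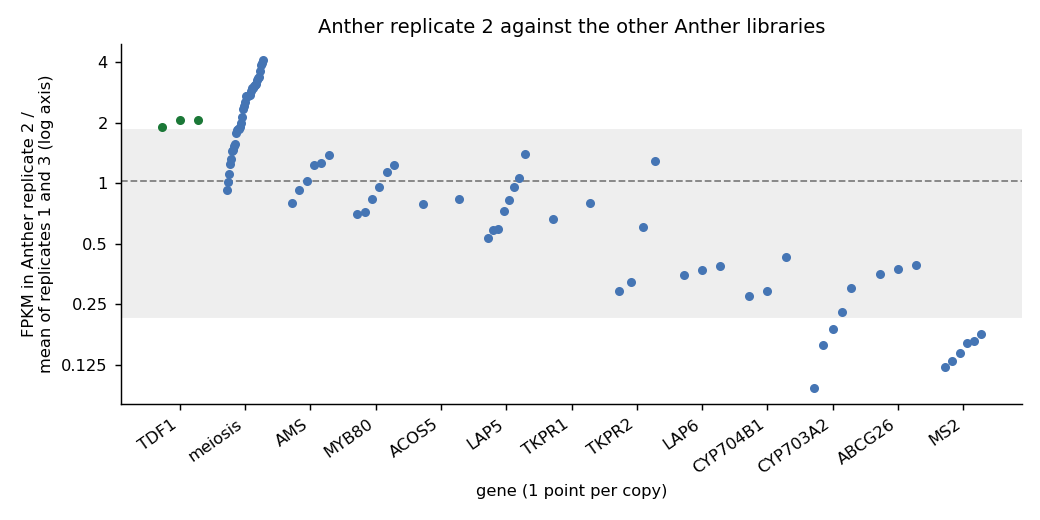
FPKM in Anther replicate 2 divided by the mean of replicates 1 and 3 (log axis), 1 point for each copy of a gene; the dashed line is the median of all genes tested (1.03) and the grey band runs from their 5th to their 95th percentile (0.217 to 1.83). The 3 TDF1 copies lie at 1.90 to 2.07, the meiotic genes spread from 0.920 to 4.09 with a median of 2.54, and MS2 and CYP703A2 lie lowest.

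The other listed genes of the pathway were chosen by the study in the same way as TDF1, and all 12 copies of AMS and MYB80 and all 36 genes of sporopollenin enzymes and the pollen wall were called higher in Anther than in Ovule and in Leaf (14.3% and 38.4% of all genes tested). Their median log2 difference between Anther and Ovule was 8.52 for AMS and MYB80, 7.99 for the 27 enzymes and 8.52 for MS2 with ABCG26. The median was 6.59 for TDF1 and -0.11 for all genes tested. Where Ovule is near 0, the added 0.1 makes this difference depend on the level in Anther. Nothing is read from the order of these medians. Between Ovule and Leaf, where TDF1 had no call, 4 of 12 copies of AMS and MYB80 were called higher in Ovule. So were 20 of the 36 other genes, beside 36.8% of all genes tested. Most of these listed genes passed the filter on low values through Anther alone, with Leaf values at or near 0. Nothing is therefore read from these counts, nor from their contrast with TDF1. The count of 20 was not stable. It was 10 without a filter or after rescaling and 4 with voom on recovered reads, and among fits without 1 library it was 7 without Ovule replicate 2 or Ovule replicate 3, 8 to 10 without any 1 of the Leaf libraries, Anther replicate 1 or Anther replicate 3, and 30 without Ovule replicate 1. For AMS and MYB80 it was 7 without Ovule replicate 1. TDF1 had no call in any of these fits.

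Ovule replicate 3 was the highest Ovule library for most of these genes. AMS summed to 0.227, 1.19 and 5.58 FPKM in Ovule replicates 1, 2 and 3, and MYB80 to 0.222, 0.470 and 2.86. In all, 47 of the 48 other tapetum and pollen wall genes were highest in Ovule replicate 3, as were 34.4% of all genes tested. The TDF1 copies have too few reads in Ovule, at 0 to 10 per library, for an order of these libraries. As a percentage of the mean in Anther, Ovule replicates 1, 2 and 3 held 0.0172%, 0.0902% and 0.423% for AMS and 0.596%, 1.11% and 0.873% for TDF1. The part of these levels in the few TDF1 reads of Ovule was not tested. In Leaf, no copy of MYB80 had a read and 5 of 6 copies of AMS had none, while TDF1 was at 0.552% to 1.04% of its mean in Anther. The reductase TKPR2 had 20.7 to 23.1 FPKM in Leaf, summed over 4 copies, and made up most of the sporopollenin sum there.

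**Figure D4:**
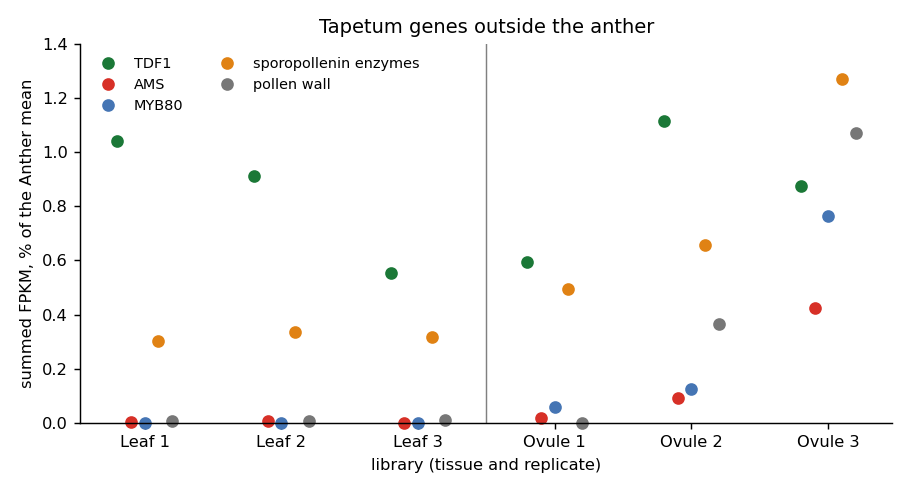
Summed FPKM in each Leaf and Ovule library as a percentage of the mean of the 3 Anther libraries, for TDF1 (3 copies), AMS and MYB80 (6 each), sporopollenin enzymes (27 genes) and pollen wall genes (9). AMS, MYB80, the sporopollenin enzymes and the pollen wall genes are highest in Ovule replicate 3. TDF1 lies between 0.552% and 1.11% in the 6 libraries, on 4 to 13 reads per library, too few for an order.

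Likeness to TDF1 was measured as the root-mean-square difference between log2(FPKM + 0.1) profiles over the 9 libraries, each centred on its own mean, against the summed FPKM of the copies. The copies themselves were 0.71 to 0.84 log2 units from each other and 0.40 to 0.59 from their own sum. The nearest of 75035 other genes was Bol026836, at 0.24 log2 units, with 9.61, 12.8 and 8.07 FPKM in the Anther libraries and at most 0.0449 FPKM elsewhere. Bra039319 followed at 0.24, with 24.2, 39.1 and 28.5 FPKM in Anther and 0.110 to 0.303 elsewhere. Bol004849 at 0.28 and BniB024653 at 0.28 had no read outside the anther. Next came Bol004666, Bra004672, Bra011363, Bol044839, Bra025721 and Bol021687. No gene names for these 10 identifiers were used here. Genes within 1 log2 unit numbered 1136. Among them were TKPR2 copies (nearest at 0.76, rank 677), the TKPR1 copy BniB015834 (0.84, rank 817) and the ASY1 copy Bra004222 (0.98, rank 1102). ASY1 is a protein of the meiotic chromosome axis. These TKPR2 and TKPR1 copies were lowest in Anther replicate 2, where TDF1 was highest, while Bra004222 was highest there. All 10 nearest genes were highest in Anther replicate 2, beside 41.3% of all genes tested, but the values of that library are part of the measure. Nearness by this measure is thus not always a shared order of the Anther libraries. The nearest MYB80 copy, BniB044215, lay just beyond 1 log2 unit at rank 1239, and the nearest AMS copy, Bra013041, at 1.59 and rank 3202. With a pseudocount of 1, none of the 10 genes was among the 10 nearest, so single names depend on how values near 0 are scaled.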

How the data were processed

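Deposited FPKM values were used. Per the study's methods, the authors aligned filtered reads with HISAT2 2.1.0 to the genomes of the diploid relatives, counted them for each gene with HTSeq 0.6.0 and determined FPKM. The submitters' processing notes also name StringTie 1.3.2, without a role. How reads that fit several copies were treated is not given in the sources used here. No scaling between libraries is stated. Whole reads were read back for all 100804 genes within 0.01 read. Tissues were compared in limma 3.58.1 (R 4.3.3), in 1 model over 9 libraries with eBayes trend and without replicate block. The values tested were log2(FPKM + 0.1) of the 75038 genes that reached 0.5 FPKM in 3 or more libraries. Genes were called where the fold change was 2 or more and the adjusted p (Benjamini-Hochberg) 0.05 or less. Recovery and fit were tested on simulated data. Python 3.11.15 was used for the other steps (scipy 1.17.1, pandas 2.3.3, matplotlib 3.10.9, numpy 2.4.6).

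Members, lists and tests were chosen with earlier results of these data known, and the lists are those that the study picked on these libraries. Named genes are the TDF1 copies, AMS, MYB80, sums over the copies of each other listed gene, and the 10 genes most like TDF1. The ASY1, TKPR1 and TKPR2 copies were named after their values were seen, as were those of LAP5. The result of 1 gene of the study's lists is not reported here. Leaf was not checked by markers, since no list of leaf markers was used here. The 18 genes of the ovule list summed to 173 to 192 FPKM in Ovule, 55.5 to 66.2 in Anther and 17.6 to 22.9 in Leaf. Alternatives were other pseudocounts, filters, scaling and weights, the 2 tissues alone, a replicate block, recovered reads, and leaving out each library. RT-qPCR was not analysed here. No genome or annotation was used here.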

Additional observations from a re-analysis of the deposited data

How the results depend on the processing

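Under 18 alternatives, all 108 values of the 3 TDF1 copies in the comparisons with Anther kept their direction and their call. The study selected the copies for this direction, and some alternatives, such as the filters, cannot move the difference itself, so nothing is read from this. No alternative gave a call between Ovule and Leaf, where the lowest adjusted p (limma) was 0.066, for BniB025201 with a pseudocount of 0.01. BniB025201 and Bol042967 had at most 5 reads per tissue there, so nothing is read from this for them. The sign of the difference between Ovule and Leaf for Bra025337 turned when single libraries were left out, with values of -0.32 to 0.18, and none of these was a call. Shares of the copies moved by less than the spread (SD) between replicates under the alternatives run for them. Leaving out 1 of 3 libraries cannot move a mean by more than that spread, and the copies differ little in length. Nothing is therefore read from the steadiness of the shares. Anther replicate 2 stayed highest for each copy after rescaling. Of the 10 genes most like TDF1, 5 remained after rescaling and 0 with a pseudocount of 1.

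Between Ovule and Leaf, the count of the 36 genes of sporopollenin enzymes and the pollen wall called higher in Ovule went from 20 to 4 with a pseudocount of 1 or with voom on recovered reads, and leaving out single libraries gave 7 to 30. It was 10 without a filter or after rescaling, 6 with only the 2 tissues compared and 7 with vooma weights. For AMS and MYB80 the count went from 4 to 0 with a pseudocount of 1 and to 2 with only the 2 tissues compared. The 37 meiotic genes went from 37 to 22 with a pseudocount of 1. These counts were added after seeing the data, and the cause was not tested. The replicate block left the log2 difference of 5.82 between Anther and Ovule for Bra025337, which it cannot move in this balanced design. It changed no call of the copies. Whether same-numbered libraries of different tissues share plants is not stated in the labels or methods. Their deviations from the tissue means correlated at -0.0947 to 0.161 for Anther with Ovule, and closer to 0 for the pairs with Leaf. Differently numbered pairs of Anther with Ovule gave -0.122 to 0.150. These values cannot decide whether the libraries are paired. Depth limits the levels outside the anther, where the copies rest on 0 to 10 reads per library.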

Other observations

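Subgenome shares of MYB80 and AMS are given as values, without a test. For MYB80 the B-genome held 21.5%, 27.8% and 21.1% of summed FPKM in Anther replicates 1, 2 and 3, so that replicate 2 was highest. For TDF1 the B-genome share was 22.3%, 27.5% and 30.5%, so that replicate 3 was highest. For AMS the B-genome share was 28.3% to 30.4%.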
